A study of Rattus norvegicus with 458 samples.

Results

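The adrenal gland and the ovary, the steroid-making organs of a small RNA atlas of the rat, were compared across all miRNA names in the table. A library entered the comparison by its tissue label, and the adrenal of rat 8 and the ovary of rat 11 were left out because of an intestinal profile. This gave 9 adrenal and 4 ovary libraries, 13 of the 215 libraries of the series. The 13 libraries came from naive Sprague Dawley rats of 12 to 13 weeks, which had received no treatment. The adrenal libraries were from 5 males (rats 2 to 6) and 4 females (rats 7, 9, 10 and 11), and the ovary libraries from 4 females (rats 7, 8, 9 and 10), so that 3 rats gave both organs. Each library was made from RNA of tissue of the organ. The labels do not separate adrenal cortex from medulla, or the follicles, corpora lutea and stroma of the ovary, and they do not give the stage of the cycle. Because males gave no ovary, sex and organ are in part confounded, and values with the female adrenals alone are given beside named miRNAs whose call they change.

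The values behind this choice were as follows. In the adrenal of rat 8 miR-194-5p, a miRNA of intestinal epithelium, stood at 12602 CPM (counts scaled to a common library total), and in the ovary of rat 11 at 15658 CPM, against at most 43.2 CPM in the 13 libraries compared and a jejunum median of 17227 CPM. No read of the gonadal miR-202-5p was counted in either of them. Within the ovary group rat 9 stood apart for several names (miR-126a-5p, for example, at 1440 CPM against 9163 to 10421 CPM in the other ovaries), and its RNA integrity number was the lowest of the 13 at 7.5. The 13 libraries held 3384738 to 13856831 counts each, from 2 runs per library, with a median of 4983609 counts in the adrenal. RNA integrity was 8.7 to 9.9 in the adrenal and 7.5 to 8.6 in the ovary, so that it moved with the organ, and its part in the differences below was not tested.

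The adrenal cortex makes corticosteroids, and the medulla within it holds chromaffin cells, neural crest derivatives that release catecholamines. The ovary makes oestrogens and progesterone in granulosa, theca and luteal cells, and also holds oocytes, smooth muscle and surface epithelium. A miRNA is a short RNA that guides repression of messages through its seed, and miRNAs of a shared seed or a shared transcript often occur as families. In bulk RNA, fewer cells of a type and less RNA per cell cannot be told apart.

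The sequences on which the comparison turns are shown first, 5′ to 3′ as RefSeq gives them on the rat assembly GRCr8, with the seed (bases 2 to 8) in capitals. The first set is the gonadal marker, from chr1:204184390-204184408 on the minus strand.
miR-202-5p: uUCCUAUGcauauacuucu
The second set comes from the imprinted Dlk1-Dio3 region of chromosome 6, all on the plus strand, and holds names of high level or large difference.
miR-127-3p: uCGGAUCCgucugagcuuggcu
miR-411-5p: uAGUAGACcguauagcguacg
miR-431: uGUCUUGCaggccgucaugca
miR-433-3p: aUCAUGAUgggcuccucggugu
miR-668: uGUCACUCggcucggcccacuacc
The third set holds miRNAs of endocrine and neuroendocrine cells.
miR-375-3p: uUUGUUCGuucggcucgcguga
miR-7a-5p: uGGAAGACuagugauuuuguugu
The fourth set is the miR-322 and miR-503 cluster on the minus strand of the X chromosome, which was high in both organs.
miR-322-5p: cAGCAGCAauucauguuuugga
miR-503-5p: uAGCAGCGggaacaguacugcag
miR-351-5p: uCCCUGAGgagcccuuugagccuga
miR-542-3p: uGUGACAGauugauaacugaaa
miR-450a-5p: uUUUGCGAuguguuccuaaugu
The fifth set was higher in the ovary, and its first 4 names share the seed GGCAGUG although they lie on chromosomes 8 and 2.
miR-34b-5p: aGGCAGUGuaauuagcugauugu
miR-34c-5p: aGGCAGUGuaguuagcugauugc
miR-449a-5p: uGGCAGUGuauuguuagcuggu
miR-449c-5p: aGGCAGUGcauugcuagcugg
miR-31a-5p: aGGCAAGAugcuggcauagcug
miR-141-3p: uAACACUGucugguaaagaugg
miR-200c-3p: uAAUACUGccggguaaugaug
miR-881-3p: uAACUGUGgcauuucugaauag
The last set is abundant in both organs.
miR-22-3p: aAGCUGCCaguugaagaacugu
miR-10a-5p: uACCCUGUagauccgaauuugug
let-7f-5p: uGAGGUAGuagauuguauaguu

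Of the 7534 names in the table, 3207 had a count in the 13 libraries and 631 passed the filter on low counts. In the edgeR fit of these 631 names, 171 (27.1%) were higher in the adrenal and 202 (32.0%) higher in the ovary at an adjusted p of 0.05. The remaining 258 were not called, and for 113 of them the 95% interval of the log2 difference lay within 1 in either direction. For 300 names (47.5%) all 9 adrenal libraries lay apart from all 4 ovary libraries in CPM. All differences below are log2 differences of scaled counts, adrenal minus ovary, and levels are CPM of the library total. The median of all names was -0.18 with the upper quartile scaling used here, and between -0.33 and -0.03 with the other scalings tried, so differences of that size carry no direction. A name could pass the filter through a single organ, and the direction of such a name was then fixed, so that counts over the members of a list that passed are descriptions.

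**Figure D1:**
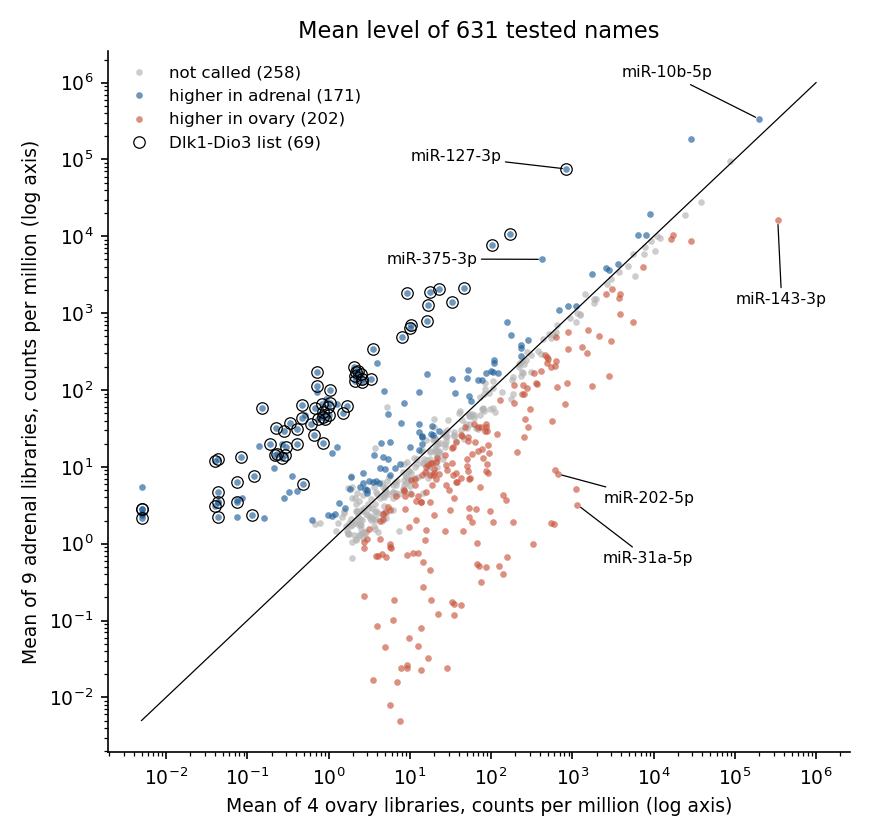
Mean level of the 631 tested names in the 4 ovary libraries (x axis) and the 9 adrenal libraries (y axis), in CPM on log axes, with the line of equal levels and each point coloured by its call; means under 0.005 CPM are drawn at 0.005. The 69 circled names of the Dlk1-Dio3 list form a band far above the line, and the ovary-higher names with large differences spread below it.

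The most abundant names differed in part. In the adrenal miR-10b-5p took 33.5% ± 3.95 (SD, n = 9) of the counts, miR-10a-5p 18.4% ± 1.55 and miR-22-3p 9.66% ± 1.96. In the ovary miR-143-3p took 33.8% ± 3.06 (SD, n = 4), miR-10b-5p 20% ± 3.53 and miR-22-3p 8.67% ± 0.221. Thus miR-10b-5p, encoded in a HOX gene cluster, and miR-22-3p ranked among the first 3 in both organs, whereas miR-143-3p, known for smooth muscle, led only the ovary list.

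miR-202, which is known for the gonads, separated the organs and was nevertheless counted in both. miR-202-5p lay at 4.76, 8.45 and 11.2 CPM (lowest, median and highest) in the adrenal and at 638, 786, 500 and 726 CPM in the ovaries of rats 7, 8, 9 and 10. The ranges were far apart, with a log2 difference of -6.23 (SE 0.19, adjusted p = 3.06e-12). The other arm, miR-202-3p, was much less abundant, at 0.187 ± 0.231 CPM in the adrenal and 6.47 ± 0.401 CPM in the ovary (log2 difference -4.78, SE 0.54). Across the medians of 23 tissues the testis was highest for miR-202-5p at 4232 CPM, the ovary came second and the adrenal came next, while the medians of the other 20 tissues were 0. All 9 adrenal libraries thus held miR-202-5p, males included, with a ratio of the means of 81.9 in favour of the ovary.

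**Figure D2:**
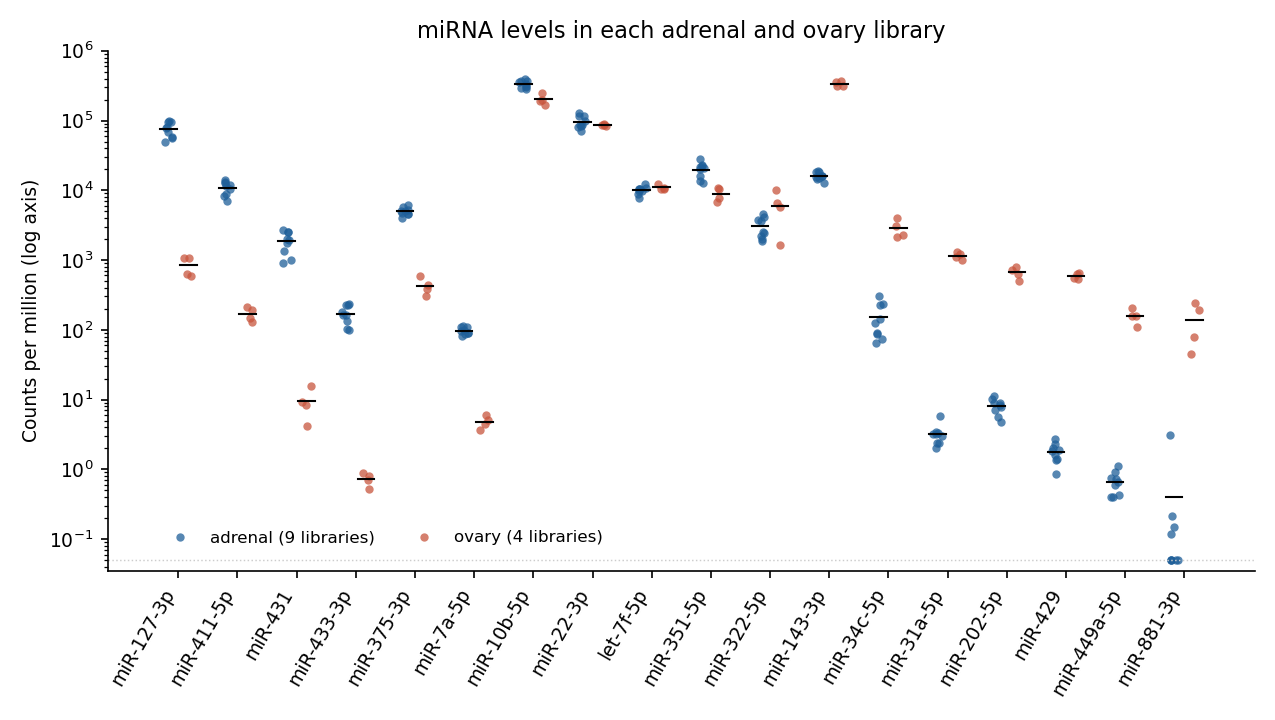
CPM (log axis) of 18 miRNAs in each of the 9 adrenal (blue) and 4 ovary (red) libraries, with a bar at the mean; values under 0.05 CPM are drawn at 0.05 on the dotted line. Names on the left are higher in the adrenal, names in the middle are high in both organs, and names on the right, including miR-202-5p, are higher in the ovary with no overlap of the libraries.

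The largest group of names with a common direction was that of the Dlk1-Dio3 region, an imprinted domain whose miRNAs are expressed from the maternal chromosome and are known for brain and embryo. The list used for it had 83 names in the table, of which 79 were detected and 69 passed the filter. All 69 were higher in the adrenal and all 69 were apart between the organs, with a median log2 difference of 6.04 against -0.18 for all names. Outside the list 18.1% of the names tested were higher in the adrenal, against 27.1% of all names, and the median difference outside it was -0.36. Most of the list passed the filter only through the adrenal, so that the direction of those names was fixed by the filter. Examples are miR-433-5p and miR-134-3p, with means of 0.0436 and 0.0401 CPM in the ovary. For 3 of the 69 no read was counted in the ovary, and with these at their bounds the median was 6.03. The summed level of the list was 71030 to 142443 CPM in the adrenal (median 114304) and 1764, 999, 1599 and 1081 CPM in the ovaries. In terms of the library it took 11% ± 2.74 of adrenal counts and 0.136% ± 0.0378 of ovary counts.

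miR-127-3p carried most of this sum. Its level was 49713, 78690 and 96784 CPM (lowest, median and highest) in the adrenal and 1083, 597, 1079 and 639 CPM in the ovaries (log2 difference 6.52, SE 0.31, adjusted p = 1.20e-10). It was the fourth most abundant name of the adrenal, at 7.52% ± 1.83 of counts. miR-411-5p followed with 7128, 11451 and 13995 CPM in the adrenal against 209, 129, 191 and 149 CPM in the ovaries (log2 difference 6.07, SE 0.24). miR-434-3p had 4435 to 11148 CPM against 76.0 to 159 CPM (6.28, SE 0.29), and miR-541-5p 1498 to 2950 CPM against 34.8 to 60.6 CPM (5.58, SE 0.22). These abundant members were therefore far from absent in the ovary, where every library counted them.

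Larger differences were found for names with less ovary signal. miR-431 had 902, 1959 and 2663 CPM in the adrenal and 15.7, 9.14, 4.18 and 8.47 CPM in the ovaries (log2 difference 7.76, SE 0.37, adjusted p = 1.20e-10). miR-433-3p had 98.8 to 237 CPM against 0.530 to 0.886 CPM (7.88, SE 0.28). miR-668, with only 3 ovary counts in all, had a pooled level 385 times higher in the adrenal (95% counting interval 132 to 1867). Among the rest, miR-341, miR-487b-3p, miR-377-3p, miR-379-3p, miR-382-3p and miR-485-5p had log2 differences of 6.71 to 7.15. miR-494-5p, miR-667-5p and miR-770-5p had no ovary count, and were at least 17.6-fold, 17.1-fold and 12.9-fold higher in the adrenal (floor of 3 counts over the 4 ovaries). The smallest difference of the list was that of miR-665, at 3.68. Members of the miR-376 family and other near-identical names in this region can share reads, and their separate values are uncertain.

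By the RefSeq coordinates, most tested names of the region fell into neighbouring runs on the plus strand of chromosome 6. The run at chr6:134298094-134331404 held 18 tested names with a median log2 difference of 6.36, and the run at chr6:134543460-134579828 held 51 with a median of 6.07. The latter included miR-1193-3p (6.99), miR-666-3p (6.72), miR-666-5p (7.24), miR-496-3p (5.97) and miR-6331 (6.17), which the list did not contain and which were chosen after their values were seen. From the first to the last name the list spanned 281.7 kb, with a largest gap of 188.9 kb. High and low differences were interspersed along both runs. Among the 23 tissue medians the adrenal was the highest for 12 of the 69 names and among the highest 3 for 21. miR-431, for example, had an adrenal median of 1959 CPM against 180 CPM in the cerebrum, the next tissue, whereas for miR-127-3p the hippocampus (162870 CPM) and the brainstem (154494 CPM) exceeded the adrenal (78690 CPM).

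**Figure D3:**
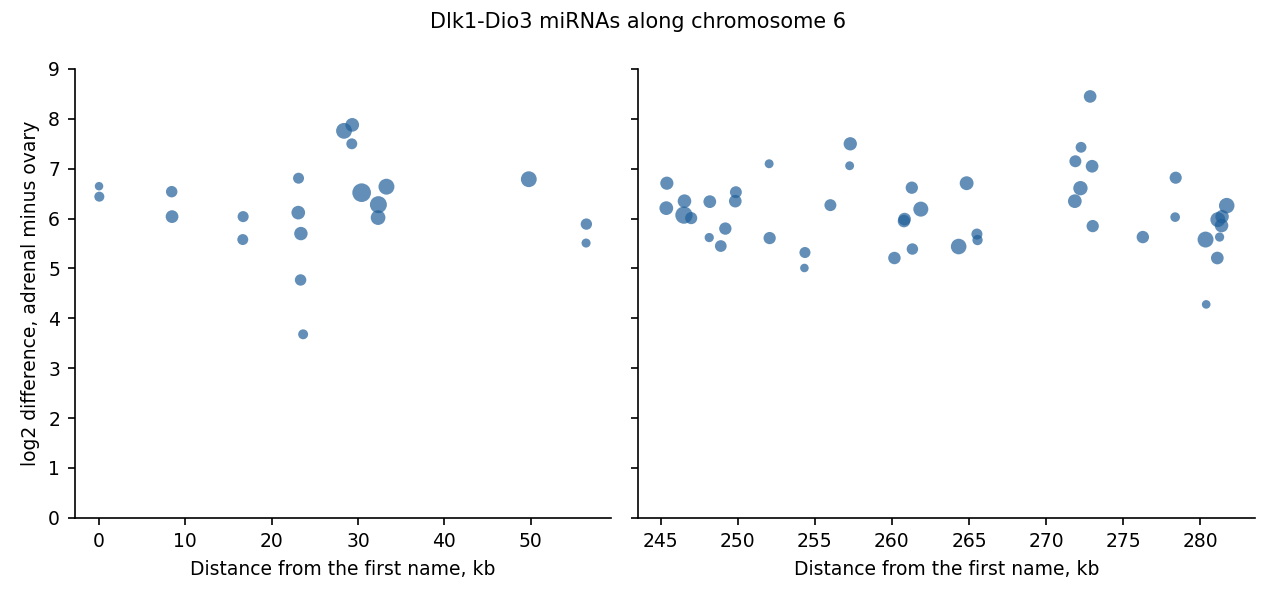
Log2 difference (adrenal minus ovary) of the tested Dlk1-Dio3 names with a RefSeq position against distance in kb from the first name along chromosome 6, in panels either side of the largest gap; larger points have a higher mean level in the adrenal. Every point lies between 3.68 and 8.45, in both panels.

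Of 5 tested names known for neuroendocrine cells, 4 were higher in the adrenal, against 27.1% of all names. Their median was 4.43, or 3.92 with names at 0 in the ovary set to their bounds. Among the 4, miR-7b and miR-7a-2-3p passed the filter only through the adrenal, so that their direction was fixed by the filter. With the runs of the shared flow cell 2 names of the list were called higher in the adrenal. miR-375-3p, a miRNA of pancreatic islets and other endocrine cells, had 4031, 5012 and 6210 CPM in the adrenal and 599, 304, 381 and 436 CPM in the ovaries (log2 difference 3.66, SE 0.17, adjusted p = 1.20e-10). miR-7a-5p had 81.3, 97.1 and 112 CPM against 4.43, 3.69, 5.92 and 5.03 CPM (4.43, SE 0.25). Both were apart in all libraries. miR-7b, which shares the seed GGAAGAC with miR-7a-5p, had no ovary count and was at least 15.2-fold higher in the adrenal. miR-7a-2-3p, the other arm of a miR-7a hairpin, also had none and was at least 34.0-fold higher. The exception was miR-7a-1-3p, from another hairpin, which was higher in the ovary (log2 difference -0.78, SE 0.25), a call not kept with the rat as a fixed block (-0.68), nor without the ovary of rat 7 (-0.68) or rat 8 (-0.70).

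Of 8 tested names known for neurons, 3 were higher in the adrenal and 1 in the ovary, against 27.1% and 32.0% of all names. The median was -0.30. miR-128-3p had 594, 764 and 1007 CPM in the adrenal and 168, 174, 116 and 168 CPM in the ovaries (log2 difference 2.45, SE 0.17). miR-153-3p (2.35, SE 0.26) and miR-137-3p (4.32, SE 0.43) were likewise higher in the adrenal. The neuronal miR-9a-5p (25.3 ± 6.79 and 34.7 ± 23.2 CPM) and miR-129-5p (20.5 ± 8.26 and 23.5 ± 8.81 CPM) overlapped between the organs, and miR-9a-5p stood in the hippocampus at a median of 41868 CPM. The list thus did not move as a whole. All 3 tested names of the miR-183/96/182 cluster of sensory cells were higher in the adrenal, by 0.68 to 1.01, with a dorsal root ganglion median for miR-182 of 60786 CPM against 3060 CPM in the adrenal. With the rat as a fixed block all of these calls were lost (miR-182 0.61, miR-183-5p 0.33, miR-96-5p 0.43), and with the female adrenals alone miR-183-5p (0.33) and miR-96-5p (0.42) were lost.

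Names encoded in the HOX gene clusters went in both directions. Of 8 tested, 5 were higher in the adrenal and 2 in the ovary, against 27.1% and 32.0% of all names. With the rat as a fixed block, or with the female adrenals alone, 3 were called higher in the adrenal, and in the fit of all tissues 2 were. miR-10a-5p had 155186, 186644 and 211889 CPM in the adrenal and 25374, 24391, 40392 and 25060 CPM in the ovaries (log2 difference 2.75, SE 0.27, adjusted p = 2.59e-07), and its 3p arm followed with 3.16 (SE 0.24). miR-10b-5p differed less, with 284263 to 391601 CPM against 188412, 196400, 249738 and 166512 CPM (0.85, SE 0.24, adjusted p = 0.00667). This last call was lost with the rat as a fixed block (0.60) and with the female adrenals alone (0.51). In the opposite direction, miR-196a-5p (0.509 ± 0.340 and 71.3 ± 33.4 CPM, log2 difference -7.00, SE 0.43) and miR-196b-5p (1.91 ± 1.06 and 189 ± 94.9 CPM, -6.48, SE 0.45) were higher in the ovary. Both passed the filter only through the ovary, so that their direction was fixed by the filter. The third miR-196 hairpin did not follow, as miR-196c-5p was not called (0.33) and miR-196c-3p was higher in the adrenal (7.31 ± 2.25 and 1.91 ± 0.589 CPM, 2.06, SE 0.25).

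**Figure D4:**
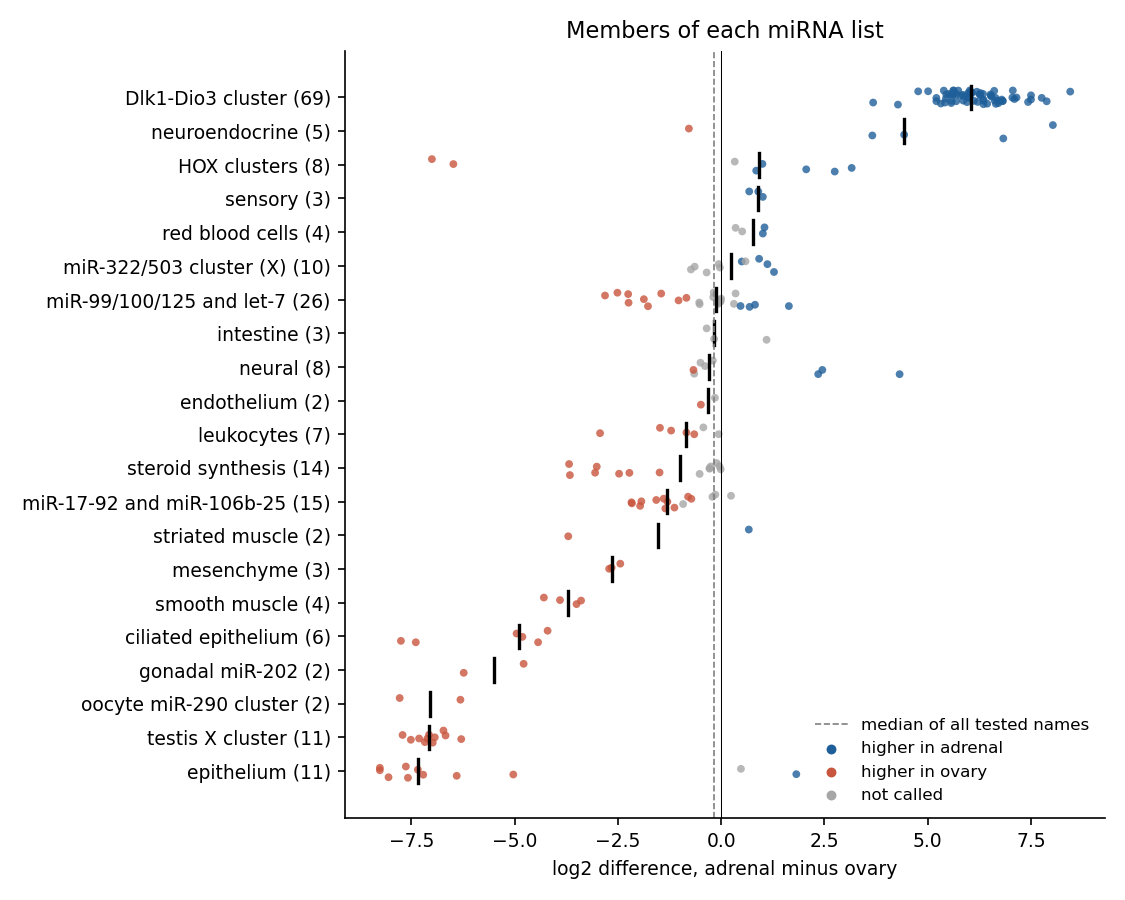
Log2 difference (adrenal minus ovary) of each tested member of 21 miRNA lists, coloured by call, with the number of members in brackets, a thick bar at the median of the list and a dashed line at the median of all 631 names. The Dlk1-Dio3 list lies wholly to the right, and the epithelium, testis X, miR-290, miR-202 and ciliated epithelium lists lie mostly to the far left.

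Smooth muscle and stromal names were higher in the ovary. All 4 tested names of miR-143 and miR-145, a smooth muscle cluster, were higher there (median -3.70), against 32.0% of all names. miR-143-3p had 12670, 16073 and 18710 CPM in the adrenal and 309641, 315955, 354754 and 373244 CPM in the ovaries of rats 7 to 10 (log2 difference -4.29, SE 0.16, adjusted p = 8.34e-12). miR-145-5p had 80.3 to 141 CPM against 1396 to 2105 CPM (-3.90, SE 0.19). Neither name overlapped between the organs. The mesenchymal names miR-199a-3p (-2.71, SE 0.14), miR-199a-5p (-2.65, SE 0.15) and miR-214-3p (-2.44, SE 0.18) made 3 of 3 tested, and for both arms of miR-199a the ovary was the highest of 23 tissue medians. The muscle miRNA miR-133a-3p was also higher in the ovary, at 484 to 625 CPM against 14.6 to 62.6 CPM (-3.70, SE 0.34), while miR-499-5p was somewhat higher in the adrenal (0.67, SE 0.24), a call lost with the block (0.42), with the female adrenals alone (0.20) and without the ovary of rat 7 (0.68), rat 9 (0.60) or rat 10 (0.66).

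Epithelial names had the list median farthest towards the ovary, at -7.34, with 9 of 11 tested higher there, against 32.0% of all names. Part of the list, such as miR-200a-3p and miR-200c-3p, passed the filter only through the ovary, so that their direction was fixed by the filter. miR-141-3p had 2.81, 5.49 and 6.56 CPM in the adrenal and 1257, 1162, 942 and 1109 CPM in the ovaries (log2 difference -7.58, SE 0.25, adjusted p = 5.35e-12). miR-429 had 0.865 to 2.75 CPM against 534 to 650 CPM (-8.26, SE 0.25), and miR-200a-3p 0.432 to 1.65 CPM against 297 to 366 CPM (-8.26, SE 0.28). These names of the miR-200 family, which is known for maintaining epithelial identity, were therefore low in the adrenal, although every adrenal library counted miR-141-3p. miR-205, of squamous epithelium, was also higher in the ovary (-5.03, SE 0.29), miR-203a-3p was not called (0.48), and miR-203b-3p was higher in the adrenal (1.82, SE 0.68). The summed level of this list was 49.7 to 117 CPM in the adrenal and 2636 to 3273 CPM in the ovary. The libraries left out, which held intestinal miRNAs, had sums of 13281 and 11477 CPM, and with them included 1 of these calls was kept.

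miR-31a-5p, outside all lists, had the largest difference towards the ovary among the named miRNAs. It lay at 2.04, 3.18 and 5.82 CPM in the adrenal and at 993, 1095, 1226 and 1312 CPM in the ovaries of rats 7 to 10 (log2 difference -8.39, SE 0.23, adjusted p = 1.82e-12). Its 3p arm differed in the same direction (-6.89). Among 23 tissue medians the liver was higher (1870 CPM), the ovary second and the adrenal among the lowest 3. With the libraries left out included the difference was -3.67 and the call was lost.

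All 6 tested names of the miR-34/449 families of ciliated cells were higher in the ovary (median -4.88), against 32.0% of all names. Of these, miR-449a-5p and miR-449c-5p passed the filter only through the ovary, so that their direction was fixed by the filter. miR-34c-5p had 63.6 to 309 CPM in the adrenal and 3960, 2148, 2267 and 3076 CPM in the ovaries (log2 difference -4.20, SE 0.30). miR-449a-5p had 0.401 to 1.10 CPM against 109 to 203 CPM (-7.75, SE 0.27), and miR-449c-5p 0 to 0.454 CPM against 21.2 to 55.2 CPM (-7.39, SE 0.45). The seed GGCAGUG joins these with miR-34a-5p, a miRNA of the p53 response. That name went the other way, with 182 ± 51.3 CPM in the adrenal and 52.3 ± 9.25 CPM in the ovary (1.86, SE 0.21). Of 40 seeds held by at least 2 tested names, 5 had members called in both directions, and this was the widest such spread.

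Germ cell names were counted in the ovary and nearly absent from the adrenal. The list of an X-linked cluster known for male germ cells had 22 detected names, of which 11 passed the filter. All 11 were higher in the ovary (median -7.07), against 32.0% of all names. miR-881-3p had 45.2, 246, 79.6 and 190 CPM in the ovaries of rats 7, 8, 9 and 10 and at most 3.10 CPM in the adrenal, with a median of 0 (log2 difference -7.71, SE 0.91, adjusted p = 2.16e-06). The ovaries of rats 8 and 10 were higher than those of rats 7 and 9, with summed levels of 937 and 790 CPM against 244 and 320 CPM. In the adrenal, rat 10 had a sum of 17.3 CPM and the next highest library 1.30 CPM. The testis medians were far higher, at 7867 CPM for miR-881-3p. All 11 names passed the filter only through the ovary, so that their direction was fixed by the filter.

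Of the miR-290 cluster, known for oocytes and early embryos, 8 names were detected and 2 passed the filter, both higher in the ovary. Both passed only through the ovary, so that this direction was fixed by the filter. miR-293-5p had 58.5, 28.7, 15.9 and 35.7 CPM in the ovaries and at most 0.432 CPM in the adrenal (log2 difference -7.78, SE 0.44). For miR-295-3p, with 1 adrenal count, the pooled level was 229 times higher in the ovary (95% counting interval 39.9 to 9177), and for miR-291b 133 times (35.7 to 1116). A further run on the X chromosome at chrX:151706741-151712151, with miR-201, miR-547 and miR-3585, was chosen after its values were seen. All 5 tested names placed there were higher in the ovary, by -5.76 to -5.0, against 32.0% of all names. Of these, miR-547-3p and miR-547-5p (adrenal means 0.276 and 0.454 CPM) passed the filter only through the ovary, so that their direction was fixed. miR-3585-5p had a mean of 621 CPM in the ovary against 9.12 CPM in the adrenal.

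miRNAs linked in the literature to cholesterol uptake, cAMP signalling or steroid enzymes did not differ in favour of the adrenal. Of 14 tested, 7 were higher in the ovary and none in the adrenal, against 32.0% and 27.1% of all names. The median was -1.0 against -0.18 for all names. The largest of these differences was that of miR-132 and miR-212, a cluster induced by cAMP signalling. miR-132-3p had 9.38, 15 and 21.5 CPM in the adrenal and 278, 171, 185 and 200 CPM in the ovaries (log2 difference -3.66, SE 0.17, adjusted p = 1.20e-10). miR-212-3p (-3.05, SE 0.26), miR-455-3p (-2.47, SE 0.22), miR-455-5p (-2.22, SE 0.18) and miR-224-5p (-1.49, SE 0.22) were higher in the ovary too. The abundant members of the list did not pass: miR-125a-5p had 7238 ± 563 and 7793 ± 1966 CPM (-0.01, 95% interval -0.44 to 0.42), miR-378a-3p 3399 ± 833 and 3788 ± 194 CPM (-0.04, -0.47 to 0.38) and miR-24-3p 469 ± 47.4 and 554 ± 76.9 CPM (-0.11, -0.39 to 0.18). miR-24-2-5p (-0.28) was called higher in the ovary with the female adrenals alone (-0.64).

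Names of proliferating cells, from miR-17-92 and its relative miR-106b-25, were higher in the ovary for 11 of 15 tested (median -1.30). Over all names 32.0% were higher there. miR-92a-3p had 1272, 1607 and 1845 CPM in the adrenal and 4208, 3768, 3226 and 4019 CPM in the ovaries (log2 difference -1.13, SE 0.14), and miR-20a-5p had the largest difference (-2.17, SE 0.19). All 4 tested names with the seed AAAGUGC were among them. In the ovary of rat 9 miR-93-5p (219 CPM), miR-19b-3p (114 CPM) and miR-25-3p (693 CPM) were much lower than in the other ovaries, and miR-93-5p there overlapped the adrenal range. miR-25-3p was not called (-0.21), except towards the ovary without rat 9 (-0.31) or with the female adrenals alone (-0.44).

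Blood and vessel names moved less. Of 7 tested leukocyte names 5 were higher in the ovary (median -0.84), against 32.0% of all names. The largest difference was that of miR-155-5p (10.8 ± 2.81 and 88.2 ± 14.5 CPM, -2.93, SE 0.20). The lymphocyte miRNA miR-150-5p did not pass (320 ± 53.6 and 381 ± 188 CPM). miR-146a-5p did not pass either (-0.43), but with the female adrenals alone was called higher in the ovary (-0.83). Under the fixed block 2 of the leukocyte names were called higher in the ovary. Of 4 tested red cell names, both arms of miR-144 were higher in the adrenal (1.05, SE 0.39, and 1.01, SE 0.29), with overlap. With the block neither was called (0.37 and 0.32), nor with the female adrenals alone (0.75 and 0.62), and miR-144-3p was not called without the ovary of rat 8 (0.90) or rat 9 (0.83) or the adrenal of rat 5 (0.95). miR-451-5p was not called (0.51), except with DESeq2 (0.70), with the runs of the shared flow cell (0.77) and without the ovary of rat 7 (0.87). The endothelial miR-126a-3p was 1751 ± 163 CPM in the adrenal and 2634 ± 120 CPM in the ovary (-0.49, SE 0.13), also not called with the block (-0.65), and miR-126a-5p was not called (-0.15) except without the ovary of rat 9 (-0.45). None of 3 tested intestinal names was called, nor was the liver miRNA miR-122-5p, at no more than 4.67 CPM, but some of these changed with the setting. Without the ovary of rat 9 both miR-122-5p (2.74) and the intestinal miR-215 (1.93) were called higher in the adrenal. The same call of miR-215 was made with the runs of the shared flow cell (3.07) and with the rat as a random block (1.87). The intestinal miR-192-5p was called higher in the ovary with the female adrenals alone (-0.43), with library size scaling (-0.49), with the rat as a random block (-0.36) and in 4 further alternatives. Pancreatic names and the names of the imprinted Igf2 and H19 genes did not pass the filter, and the highest summed levels were 1.76 CPM and 1.6 CPM in the 13 libraries.

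The names high in both organs formed a large common part. There were 35 names above 1000 CPM in all 13 libraries, and they took 84.6% ± 3.00 (SD, n = 9) of the adrenal counts and 92.4% ± 1.03 (SD, n = 4) of the ovary counts. Each organ alone had 44 such names, so that 79.5% of either list was shared. Of the 35, 9 were higher in the adrenal, 9 in the ovary and 17 were not called, 15 of these with a 95% interval within 1 in either direction. Over all names 27.1% were higher in the adrenal and 32.0% in the ovary, and outside the Dlk1-Dio3 list 18.1% were higher in the adrenal. Nothing about the shared names is read from their counts of calls. By tissue medians 10 of the 35 exceeded 1000 CPM in each of the 21 other tissues and 28 in at least 15, so that most of the shared names were also abundant in other organs.

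The most abundant name without a call was miR-22-3p. It had 70125, 86787 and 128828 CPM in the adrenal and 89618, 86658, 84271 and 86215 CPM in the ovaries (log2 difference 0.25, 95% interval -0.06 to 0.56), although with DESeq2 (0.41), with TMM scaling (0.32) with the runs of the shared flow cell (0.48) and without the ovary of rat 9 (0.39) it was called higher in the adrenal. let-7f-5p had 7800 to 12114 CPM against 10448 to 12490 CPM (-0.03, -0.41 to 0.35), and miR-30e-5p 8674 ± 1042 and 9252 ± 563 CPM (0.01, -0.27 to 0.29). miR-26a-5p had 25411 to 32661 CPM against 46877, 50003, 20531 and 38088 CPM (-0.31, -0.68 to 0.06), where rat 9 was again the lowest ovary and without which it was called higher in the ovary (-0.42), as it was with the female adrenals alone (-0.58) and with library size scaling (-0.48). miR-30a-5p had 15449 to 21303 CPM and 22509 to 25717 CPM, which did not overlap, although the fit did not call it (-0.27, -0.55 to 0.01), except with the female adrenals alone (-0.47) and in 4 further alternatives (-0.38 to -0.31). Among the shared names with calls, miR-21-5p was higher in the ovary (8694 ± 1535 and 29269 ± 6132 CPM, -1.61, SE 0.14), as were miR-181a-5p (-0.69, SE 0.15) and miR-27b-3p (-0.61, SE 0.14), the latter not called with the block (-0.59). miR-99b-5p was higher in the adrenal (10270 ± 1155 and 6466 ± 1680 CPM, 0.82, SE 0.15), and with the block was not called (0.54).

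The let-7 family and the linked miR-99, miR-100 and miR-125 names were mixed, with 4 of 26 tested higher in the adrenal, 9 in the ovary and 13 not called. Over all names 27.1% were higher in the adrenal and 32.0% in the ovary, and outside the Dlk1-Dio3 list 18.1% were higher in the adrenal. Under the fixed block 1 of the 26 was called higher in the adrenal, and with the female adrenals alone 2 were. let-7c-5p was higher in the ovary (3942 ± 659 and 7379 ± 1412 CPM, log2 difference -0.84, SE 0.17), as was let-7i-5p (1756 ± 232 and 3817 ± 357 CPM, -1.03), whereas let-7g-5p, outside the list, was higher in the adrenal (3852 ± 509 and 2567 ± 354 CPM, 0.71). These names share the seed GAGGUAG, of which 2 of 9 tested names were called in each direction.

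Only 3 of the 35 shared names exceeded 1000 CPM in fewer than 5 other tissues, and these were miR-351-5p, miR-322-5p and miR-450a-5p of the X-linked miR-322 and miR-503 cluster, a cluster known from ovarian follicles and muscle. To ask which names stood above the other organs, the mean of adrenal and ovary was compared with the mean of the 21 other tissues over 1626 names. By the edgeR adjusted p, 199 names (12.2%) were higher and 144 (8.86%) lower. The higher names made 58.0% of all calls here and 70.3% with TMM scaling. For 17 of the 199 both medians exceeded every other tissue median, 14 of them with single or composite mature names.

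The 8 leading mature names all came from this cluster, at chrX:137720952-137726219. miR-351-5p was the highest, with medians of 20534 CPM in the adrenal and 9091 CPM in the ovary against 2177 CPM in the testis, the next tissue (log2 difference over the other organs 4.74, SE 0.24, adjusted p = 2.49e-45). miR-322-5p had 2507 and 6087 CPM against 1226 CPM in the heart (4.06, SE 0.22). miR-450a-5p had 3919 and 2701 CPM against 884 CPM in the testis (3.93, SE 0.22). miR-542-3p had 513 and 595 CPM against 179 CPM (4.13, SE 0.23). The remaining 4, miR-450a-3p, miR-351-3p, miR-503-5p and miR-322-3p, were between 3.95 and 4.28. All 8 calls were kept with the rat as a fixed block.

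Between the organs the cluster did not move as a whole. Of 10 tested names 4 were called higher in the adrenal (miR-351-5p, miR-542-5p, miR-503-3p and miR-450a-5p), none in the ovary, and the median was 0.24. Over all names 27.1% were higher in the adrenal and 32.0% in the ovary. miR-351-5p had 12646, 20534 and 28132 CPM in the adrenal and 6719, 10815, 10552 and 7631 CPM in the ovaries (log2 difference 1.28, SE 0.33, adjusted p = 0.00346). miR-322-5p had 1875, 2507 and 4614 CPM against 5685, 10049, 1664 and 6489 CPM (-0.73, SE 0.38), overlapping through rat 9, without which it was called higher in the ovary (-0.98). These calls depended on the libraries. With the female adrenals alone none of the 4 was kept (miR-351-5p 0.73, miR-450a-5p 0.22) and miR-322-5p (-1.49), miR-322-3p (-0.76) and miR-503-5p (-1.71) were higher in the ovary. With the rat as a fixed block 1 of the names was called higher in the adrenal, miR-351-5p (0.95) and miR-450a-5p (0.47) among those lost, and miR-503-5p (-1.62) was called higher in the ovary. Without the ovary of rat 7 (0.44) or rat 10 (0.52) miR-450a-5p was not called.

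The organs also differed in the forms of a miRNA. For 50 named miRNAs with at least 100 counts in every library, the share of the most counted isomiR, a sequence variant of one miRNA, was compared with a two-sided exact permutation test over the 715 assignments of 13 libraries. This test, also used for the arms, takes no account of the 3 rats that gave both organs. After Benjamini-Hochberg adjustment 26 of 50 passed the threshold, 17 with the higher share in the adrenal. The largest differences were again in the miR-322 and miR-503 cluster. The RefSeq form of miR-322-5p took 68.9% ± 2.58 of its counts in the adrenal (66.1 to 74.3%) and 44.6% ± 5.34 in the ovary (43.7, 49.1, 37.4 and 48.3%), with exact p = 0.0014, the smallest this design can give (adjusted 0.00389). The form with a further T at the end took 17.9% ± 3.24 in the adrenal and 43.1% ± 2.17 in the ovary. The forms are shown as counted, with bases past the RefSeq end in capitals.
RefSeq form of miR-322-5p: cagcagcaattcatgttttgga
longer form of miR-322-5p: cagcagcaattcatgttttggaT
most counted form of miR-542-3p: tgtgacagattgataactgaaaGT
most counted form of miR-322-3p: aaacatgaagcgctgcaacaCT
The longer forms of miR-542-3p (29.5% ± 2.19 in the adrenal and 56.7% ± 2.03 in the ovary) and of miR-322-3p (44.4% ± 2.53 and 64.0% ± 1.06) were also more frequent in the ovary, both with exact p = 0.0014 and adjusted p = 0.00389. In the ovary of rat 9 the miR-322-5p share, at 37.4%, was the lowest of the 4.

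Beyond this cluster, the 24-base form of miR-30a-5p took 40.0% ± 2.03 in the adrenal and 49.9% ± 3.18 in the ovary, and the 22-base form of miR-21-5p 46.1% ± 1.21 and 36.5% ± 5.58. The RefSeq form of miR-34c-5p took 88.1% ± 1.85 and 74.5% ± 3.85, and that of miR-434-3p 88.7% ± 0.726 and 75.4% ± 4.82. For 4 names the most counted form itself differed between the organs (miR-182, miR-183-5p, miR-199a-5p and miR-541-5p). In contrast, miR-22-3p was nearly uniform, with 95.8% ± 1.33 and 95.3% ± 2.11 on the same sequence. For miR-10b-5p the most counted sequence, with 73.0% ± 2.71 and 70.7% ± 1.36, started 2 bases before the RefSeq form, and its sequence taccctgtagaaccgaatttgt shares its start with miR-10a-5p. With 4 female adrenals against 4 ovaries none of the shares passed, where the smallest exact p is 0.0286 before adjustment.

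**Figure D5:**
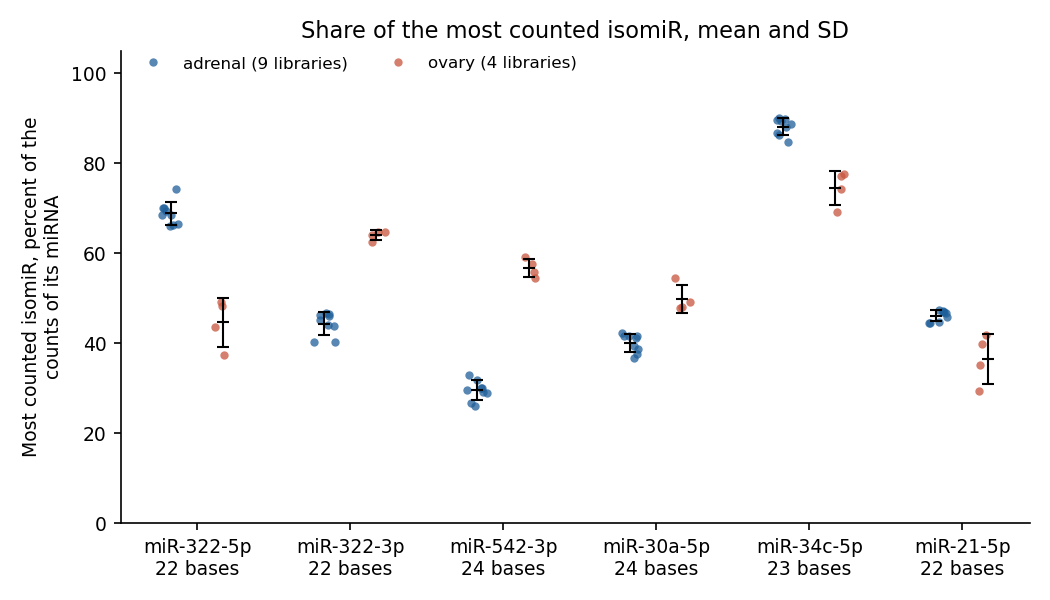
Percent of the counts of a miRNA on its most counted isomiR in each of the 9 adrenal (blue) and 4 ovary (red) libraries, with the mean and SD. The libraries of the organs do not overlap for any of the 6 miRNAs, and the adrenal is higher for miR-322-5p, miR-34c-5p and miR-21-5p.

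The use of the arms of a hairpin differed for 8 of 36 hairpins tested in the same way, 4 with the higher 5p share in the adrenal. The larger shifts were in the same X cluster. For miR-503 the 5p arm took 7.78% ± 2.85 of the counts of both arms in the adrenal and 21.6% ± 5.51 in the ovary, and for miR-542 it took 24.1% ± 2.41 and 12.4% ± 4.81 (exact p = 0.0014, adjusted p = 0.0101 for both). For miR-142 the shares were 91.1 to 93.2% and 77.0 to 91.2%, so that the organs overlapped slightly. The other 5 (miR-127, miR-143, miR-21, miR-351 and miR-93) differed by less than 2 percentage points. As with the isomiRs, none passed with the female adrenals alone.

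Within the adrenal, females and males were compared because the ovary is female only. Of 539 names tested with edgeR, 37 (6.86%) were higher in females and 9 (1.67%) higher in males, a split of 80.4% that became 65.5% with TMM scaling and 52.2% with DESeq2. miR-504, an X-linked miRNA with its highest tissue median in the hippocampus (361 CPM), was lower in females, at 14.5, 11.3, 15.1 and 9.86 CPM, than in males, at 69.5 to 99.7 CPM (log2 female minus male -2.68, SE 0.22, adjusted p = 2.15e-04), and was 3.44 to 7.38 CPM in the ovary. miR-34c-5p had 143 to 309 CPM in females and a mean of 88.1 CPM, with 63.6 CPM as the lowest, in males, without overlap (1.30, SE 0.15, adjusted p = 0.00273), and miR-34b-5p 6.92 ± 1.05 and 2.13 ± 0.659 CPM (1.63, SE 0.21, adjusted p = 0.00373). Both were also higher in the ovary than in the adrenal. Of the 37, 26 belonged to the Dlk1-Dio3 list, of which 69 names were tested between the sexes, and whose summed level was 114539 to 142443 CPM in females and 71030 to 114304 CPM in males. The counts depended strongly on single libraries: leaving out any of the rats 3, 4, 5, 7, 9 or 11 left 2 or 3 names higher in females, and with the adrenal of rat 8 included there were 0 and 1.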

How the data were processed

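The study sequenced small RNA from rat organs (TruSeq small RNA libraries, HiSeq). According to the study's methods, adapters were trimmed (cutadapt 1.4.1, from the submitters' processing notes), and short reads and reads with an undetermined base were dropped. Reads were then counted with the miRDeep2 quantifier against rat, mouse and human miRBase names in turn. The values deposited by the authors are raw counts per miRNA name and run, with no normalization. A sequence that matched several precursors carries a composite name. Near-identical names (miR-126-3p and miR-126a-3p, miR-424-5p and miR-322-5p) can split reads.

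Here the 2 runs of each library were summed. All 30 runs of the adrenal and ovary libraries were used, 0 of them from a lane listed more than once, and 0 value columns of the table were left unmatched. After a filter on low counts (filterByExpr on organ) and upper quartile scaling, organs were compared by the quasi-likelihood test of edgeR 4.0.16 (limma 3.58.1, R 4.3.3) with Benjamini-Hochberg adjustment at 0.05, and DESeq2 1.42.0 was an alternative. CPM is the count scaled to a common library total. Tissue medians used all libraries of each other tissue, and the fit against the other organs used 205 samples. IsomiR and arm shares were compared by two-sided exact permutation tests in Python 3.11.15 (scipy 1.17.1, numpy 2.4.6, pandas 2.3.3), and plots were drawn with matplotlib 3.10.9. The scripts were tested on simulated data. Of the 118 names chosen for description, 111 had a mature sequence in RefSeq (GRCr8), and no coordinates of another assembly were used.

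Names were described by a rule: both arms of miR-202; per organ the 12 largest called differences with at least 20 CPM there and no overlap; the 12 names with the highest lower organ mean; the 8 leading names above the other organs; up to 4 abundant names of each list; and 3 names of the sex comparison. Further list members, seed relatives and shared abundant names were added after their values were seen. The members and lists were chosen with earlier results of these data known. Replicates were separate rats. Their pairwise chi-square per degree of freedom was 30.5 to 678 in the adrenal and 69.8 to 573 in the ovary, so that none was a duplicate. Rats 7, 9 and 10 gave both organs, and deviations from the organ means correlated at 0.328, 0.0974 and 0.284 within these rats against a median of -0.0438 over 33 pairs of different rats. Counting intervals and floors (3 counts over a group) cover counting error only, since reads carried no molecular identifiers.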

Additional observations from a re-analysis of the deposited data

Results flagged for a closer look

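Of 185 groups of values (a named miRNA in 1 organ), 18 held a library whose gap to its nearest neighbour was large against the range of its organ. Chance gives such a gap in about 1 in 20 groups, but the groups here share libraries and are not independent. Of the 18, 10 were the ovary of rat 9. Its level lay above the other ovaries for let-7f-5p (12490 CPM, the next 10654 CPM) and miR-10a-5p (40392 CPM, the next 25374 CPM). It lay below them for miR-126a-5p (1440 CPM), miR-128-3p (116 CPM), miR-142-5p (229 CPM), miR-191a-5p (7285 CPM), miR-19b-3p (114 CPM), miR-214-3p (124 CPM), miR-25-3p (693 CPM) and miR-93-5p (219 CPM). Its RNA integrity number, 7.5, was the lowest of the 13, and the part of this in these values was not tested.

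The other 8 were adrenal libraries, all above the rest of the group. In rat 11 these were miR-1193-3p (193 CPM), miR-145-3p (99.6 CPM) and miR-99b-5p (12892 CPM), and in rat 2 miR-150-5p (444 CPM) and miR-96-5p (44.5 CPM). In rat 3 miR-31a-5p stood at 5.82 CPM. In rat 10 the male germ cell names miR-743b-3p (3.32 CPM, the next 0.454 CPM) and miR-871-3p (4.47 CPM, the next 0.216 CPM) stood apart.

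In the libraries outside the comparison, the intestinal miR-194-5p was 12602 CPM in the adrenal of rat 8 and 15658 CPM in the ovary of rat 11, against at most 43.2 CPM in the 13 libraries compared. These libraries were left out for their intestinal profile, so that the values restate the reason for the choice.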

How the results depend on the processing

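Across the alternatives, no value with a call changed direction among the 101 named miRNAs tested between the organs. Counts of names higher in the adrenal and in the ovary, 171 and 202, were 192 and 179 with DESeq2, 133 and 215 with the female adrenals alone, 132 and 148 with the libraries left out included, and 116 and 103 with the runs of the shared flow cell, where 235 of the 373 calls could be tested again. Leaving out 1 library at a time gave 165 to 176 and 188 to 209. With the rat as a fixed replicate block the counts were 126 and 164, and 283 of the 373 calls were kept, none with the other sign. With the rat as a random block they were 172 and 215. Names higher than the other organs numbered 202 with the block and without the dorsal root ganglion, and 177 to 200 without 1 library, and names lower 116 to 146. The fixed block changed no named call beyond those given beside the results, miR-142-5p (-0.82) and miR-223-3p (-0.75), which it did not call.

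Between the sexes the counts moved most. Names higher in females, 37, were 0 with the adrenal of rat 8, and 2 to 33 without 1 library (20 without rat 2). Names higher in males, 9, were 1 with the adrenal of rat 8, 33 with DESeq2, 19 with TMM scaling and 38 with no filter, and 1 to 17 without 1 library (17 without rat 10, 14 without rat 6, at most 3 without rats 3, 4, 5, 7, 9 or 11). Names above 1000 CPM in all libraries numbered 35 to 37 without 1 library. The isomiR shares past the threshold, 26, were 17 with the libraries left out included and 0 with the female adrenals alone, and 23 to 27 without 1 library. The arm shares, 8, were 5, 0 and 7 to 9. The female adrenals alone leave 4 libraries an organ, where the smallest exact p is 0.0286 before adjustment. The causes of the other changes were not tested. Names with few counts are limited by depth.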
